A study of Mus musculus with 3 samples.

Results

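Small nucleolar RNA (snoRNA) host genes are genes whose introns carry snoRNAs, and 8 of the noncoding ones were followed here in mouse T-helper 1 (Th1) cells, the CD4 T cells that make interferon gamma. The members were Gas5, Snhg1, Snhg3, Snhg5, Snhg6, Snhg8, Snhg12 and Snhg15, chosen by name and found by gene identifier. All 8 were among the 50600 genes counted. There was 1 group of 3 libraries from primary Th1 cells of strain C57BL/6NJ, numbered as biological replicates 1, 2 and 3 with the same donor record. No treatment, genotype or control group is given in the labels, sex was not collected, and age is unknown. Per the file headers, the time was 72 hours and the cells were sorted. The labels name a total RNA assay but link a protocol named for polyadenylated RNA. With a single group, comparisons are between genes within a library and between libraries. Nothing in the labels says that the libraries came from separate animals, so differences between them may be technical.

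snoRNAs guide chemical marks onto ribosomal RNA. The box C/D class guides 2'-O-methylation with fibrillarin, and the box H/ACA class guides pseudouridylation with dyskerin. In mammals most are cut from introns after splicing, so each round of host transcription can yield snoRNAs as well as a spliced RNA. The spliced RNA of many noncoding hosts is exported, briefly translated and degraded by nonsense-mediated decay, and several start with a pyrimidine tract, as ribosomal protein mRNAs do. T cells raise ribosome production when they are activated.

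The annotation (GENCODE mouse release 21, GRCm38) placed 30 snoRNA genes, at 28 separate loci, within the members on the same strand. Gas5 held 10 of them and Snhg1 held 8. All 30 lay in an intron of the member's transcript with the most exons. Spacing was regular near the end of the intron. Of 21 snoRNAs under 100 bases, 17 ended between 60 and 90 bases before the intron's 3' end, with a median of 74. Of the 9 longer ones, 6 did, with a median of 81. The widest gap was 1595 bases, for Snora9 in Snhg15.

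**Figure D1:**
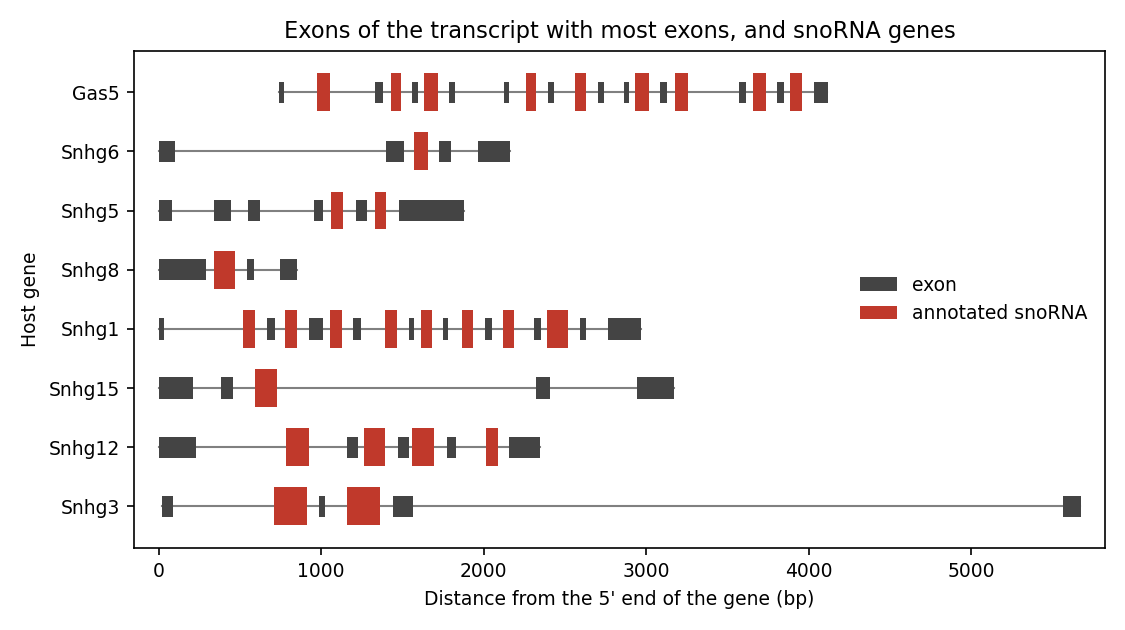
Gene maps of the 8 host genes, drawn to scale, with distance from the gene's 5' end in bp on the horizontal axis and 1 gene per line. Dark boxes are exons of the transcript with the most exons, red boxes are the 30 annotated snoRNA genes, and Gas5 (10) and Snhg1 (8) carry most of them.

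The snoRNA sequences below, from 6 of the 8 hosts, show what the 2 classes look like. They are read 5' to 3' from the GENCODE transcripts. Capitals mark the box C core TGATGA in the first 20 bases, the box D core CTGA in the last 12 bases, or the ACA that stands 3 bases before the end.
Snord47 (Gas5, chr1:161038082-161038158, plus strand): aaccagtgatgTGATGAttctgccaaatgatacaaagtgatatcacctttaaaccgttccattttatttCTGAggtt
Gm22680 (Snhg1, chr19:8725341-8725409, plus strand): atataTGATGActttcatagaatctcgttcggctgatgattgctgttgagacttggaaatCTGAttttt
Snord50a (Snhg5, chr9:88521529-88521600, minus strand): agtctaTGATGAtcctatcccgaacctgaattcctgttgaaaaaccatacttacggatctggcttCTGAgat
Snord50b (Snhg5, chr9:88521797-88521868, minus strand): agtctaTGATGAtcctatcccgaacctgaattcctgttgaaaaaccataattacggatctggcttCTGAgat
Snora24 (Snhg8, chr3:123507937-123508066, minus strand): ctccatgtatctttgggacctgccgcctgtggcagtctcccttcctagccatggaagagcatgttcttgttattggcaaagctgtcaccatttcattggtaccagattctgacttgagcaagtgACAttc
Snora61 (Snhg12, chr4:132310240-132310369, plus strand): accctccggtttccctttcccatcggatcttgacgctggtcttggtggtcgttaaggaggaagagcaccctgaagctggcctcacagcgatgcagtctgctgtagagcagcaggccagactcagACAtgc
Snora73b (Snhg3, chr4:132352322-132352526, minus strand): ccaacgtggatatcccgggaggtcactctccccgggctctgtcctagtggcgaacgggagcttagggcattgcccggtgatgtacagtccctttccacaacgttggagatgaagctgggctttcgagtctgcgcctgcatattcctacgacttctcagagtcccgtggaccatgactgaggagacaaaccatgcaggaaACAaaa

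Snord50a and Snord50b, both in Snhg5, had the same length and differed by C50A, counted from 1 at the 5' end of the RNA. Searched on the RNA strand, both the box C and box D letters stood in these windows in 15 of the 21 snoRNAs under 100 bases and in 0 of the 9 longer ones. The ACA stood 3 bases before the end in 7 of the 9 longer ones and in 1 of the 21 shorter ones, Mir5117, which also held both boxes. Among all 1507 annotated snoRNA sequences, the shares were 19.7% for both boxes and 18.3% for the ACA. By the snoRNA names that give a class, Gas5, Snhg1, Snhg5 and Snhg6 (Snord87) are hosts of the C/D class. By the same names, Snhg3, Snhg8 and Snhg15 are hosts of the H/ACA class. For Gas5 those names are Snord47, Snord78 and Snord80, and for Snhg1 only Snord22, which lacked the box C letters in the window. The other snoRNAs of Gas5 and Snhg1 have names that give no class. Snhg12 carries both, with Snora16a, Snora44 and Snora61 beside Snord99.

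RefSeq start sites (GRCm38.p6) were matched for 7 of the 8 members, Gas5 with 2 of them. The first 30 bases are shown for the 3 members with a run of at least 5 C or T letters at a start. A start at C followed by such letters is the known hallmark of growth-regulated mRNAs. Capitals mark the unbroken run of C and T from the start site.
Gas5, the second start (chr1:161035166-161035195, plus strand): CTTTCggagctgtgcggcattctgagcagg
Snhg8 (chr3:123508307-123508336, minus strand): CTCTTTggctgcgatccgcctacgagtatg
Snhg12 (chr4:132308678-132308707, plus strand): TTTCTCgcttcatccgcggtccctgtctgt
A start at C with a run of at least 5 C or T letters, on the gene's strand, was found at 2 of the 8 member entries, those of Gas5 and Snhg8. The run at Snhg12 had 6 letters but began with T. Of all 32851 promoter entries 2.51% had such a start, and of 73 entries of ribosomal protein genes 19.2% did. These are matches of letters at annotated starts, which the count data do not locate.

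The libraries held 4482916, 266790 and 3733531 counts in replicates 1, 2 and 3, so replicate 2 was the shallowest by far. A gene of 2000 bp with 3 counts stands at 0.717, 11.6 and 0.737 TPM in the same order (TPM is a share of the library scaled to gene length). The files counted fragments on the strand set in the header, and genes whose exons overlap an exon on the other strand, 16.2% of all genes, held 51.7%, 55.1% and 66.5% of the counts. The strand orientation of the library kit is not given in the sources used here, so every level below is that of the counted strand. If the kit marks the strand opposite to that setting, the counts are of fragments antisense to each gene, and every level, rank and comparison below, of the hosts and of the lists and markers, would describe that signal. A mean of at least 10 TPM was reached by 10.9% of long noncoding genes, but by 1.69% of those with no exon overlap on the other strand. Which orientation holds was not tested. The T-cell genes Cd3e, Cd3g, Cd4, Cd28 and Trac and the Th1 genes Tbx21, Ifng, Lta, Il12rb2 and Il18r1 all had a mean of at least 10 TPM. Cd3e had 1 count in replicate 2. Among markers of CD8 T cells, B cells, macrophages and erythroid cells, Cd8a, Ms4a1, Lyz2, Adgre1 and Hbb-bs had 0 counts in each library. Cd8b1 and Cd79a had means below 10 TPM. Csf1r and Alas2, whose exons face another gene, had means of 111 and 11.0 TPM.

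Together the 8 members held 3778, 205 and 2106 counts, which is 0.0843%, 0.0768% and 0.0564% of the libraries. Their summed level was 773, 631 and 458 TPM, or 621 ± 158 TPM (SD, n = 3). In bulk RNA, fewer cells that express a gene and less of its RNA per cell cannot be told apart. All 8 members had a mean of at least 10 TPM, against 15% of all genes and 10.9% of the 10979 long noncoding genes. The share was 1.69% of the 8222 long noncoding genes with no exon overlap on the other strand, a class that holds 6 of the 8 members. Gas5 alone gave 60.1%, 61.0% and 57.6% of the members' counts.

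Gas5 (growth arrest-specific 5, ENSMUSG00000053332, chromosome 1, 161034422 to 161038539, plus strand) was the highest member. Its spliced RNA is known to build up when growth stops, and its introns carry C/D snoRNAs such as Snord47. It had 2270, 125 and 1214 counts, which is 289, 257 and 159 TPM (235 ± 67.9, SD, n = 3). Replicate 3 was the lowest, and its value lay just above the highest value of any other member, 157 TPM for Snhg5 in replicate 2. It ranked 5 by mean TPM among the long noncoding genes with no overlap and 291 among all 10979 long noncoding genes, and it stood in the top 1.36% of all genes.

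Snhg1 (ENSMUSG00000108414, chromosome 19, 8723475 to 8726443, plus strand) is the host of Snord22 and 7 more annotated snoRNA genes. It had 435, 23 and 238 counts and 70.1, 59.96 and 39.4 TPM (56.5 ± 15.6, SD, n = 3). Like Gas5, it was highest in replicate 1 and lowest in replicate 3. Its rank was 29 among the long noncoding genes with no overlap and 712 among all of them.

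Snhg5 (ENSMUSG00000097195, chromosome 9, 88521050 to 88522929, minus strand) is the host of the near-identical pair Snord50a and Snord50b. It had 220, 35 and 143 counts and 60.8, 157 and 40.6 TPM (86.0 ± 62.0, SD, n = 3). Its level was highest in replicate 2, the only member for which this held, and its mean was 50.7 TPM without that library.

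Snhg6 (ENSMUSG00000098234, chromosome 1, 9941959 to 9944118, minus strand) carries Snord87. It had 268, 11 and 200 counts and 112, 74.3 and 85.7 TPM (90.6 ± 19.2, SD, n = 3). On this scale its relative spread was the smallest of the 8. With TPM scaled over genes with no overlap alone, Snhg6 had 276 ± 71.7. That is a wider relative spread than those of Gas5 (689 ± 50.7) and Snhg1 (166 ± 11.0). Of the exon bases of Snhg6, 127 (11.1%) face an exon of Mcmdc2 on the other strand. Mcmdc2, a gene of meiotic recombination, had 732, 96 and 1338 counts, which per length is 0.529, 1.69 and 1.30 times the TPM of Snhg6.

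Among hosts of the H/ACA class, Snhg8 (ENSMUSG00000104960, chromosome 3, 123507552 to 123508404, minus strand), the host of Snora24, was highest. It had 188, 5 and 107 counts and 105, 45.4 and 61.6 TPM (70.8 ± 31.1, SD, n = 3). Snhg15 (ENSMUSG00000085156, chromosome 11, 6525591 to 6528760, minus strand), the host of Snora9, had 136, 3 and 94 counts and 47.9, 17.1 and 34.0 TPM (32.97 ± 15.4, SD, n = 3). Both were highest in replicate 1 and lowest in replicate 2, where their counts were near the floor of 3 counts used here.

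Snhg3 (ENSMUSG00000085241, chromosome 4, 132348014 to 132353686, minus strand) was the lowest member, with 59, 2 and 26 counts and 28.6, 15.7 and 12.9 TPM (19.1 ± 8.36, SD, n = 3). It carries Snora73a and Snora73b, H/ACA-type snoRNAs known for a role in cutting the ribosomal RNA precursor. It shares its locus with 2 other genes. On its own strand, 135 of its exon bases are also exon of Rcc1, the exchange factor for Ran, which had 414, 29 and 259 counts. On the other strand, 705 bases (71.5% of its exons) are also exon of the noncoding gene Gm17300 (132351772 to 132353382). Gm17300 had 3212, 327 and 4222 counts, and its TPM was 35.2, 106 and 105 times that of Snhg3. Far more fragments were assigned to the gene facing Snhg3 than to Snhg3 in every library.

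Snhg12 (ENSMUSG00000086290, chromosome 4, 132308678 to 132311024, plus strand), the mixed host, had 202, 1 and 84 counts and 59.4, 4.76 and 25.4 TPM (29.8 ± 27.6, SD, n = 3). It had the widest relative spread, with a single fragment in replicate 2. The exact Poisson 95% interval of that fragment runs from 0.0253 to 5.57 counts. Its mean was 42.4 TPM without replicate 2 and 15.1 TPM without replicate 1.

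**Figure D2:**
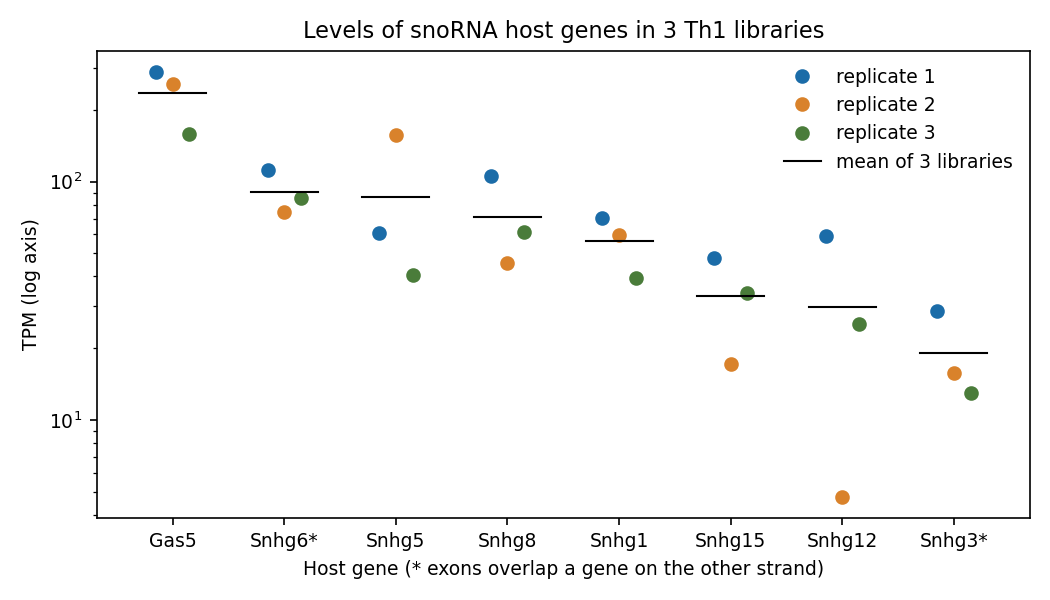
TPM (log axis) of each host gene in the 3 Th1 libraries, in order of the mean, with a point per library and a bar at the mean of 3. Gas5 lies above all others in every library, Snhg5 is highest in replicate 2 and Snhg12 falls to 4.76 TPM there.

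The order of the means was Gas5, Snhg6, Snhg5, Snhg8, Snhg1, Snhg15, Snhg12 and Snhg3. Of the 7 steps between neighbours, that from Gas5 to Snhg6 had ranges over libraries that did not overlap. Gas5 exceeded Snhg6 by 1.35 ± 0.45 (SD, n = 3) on the log2 scale of TPM, in 3 of 3 libraries. Snhg1 exceeded Snhg15 by 0.86 ± 0.84, also in 3 of 3. The other 5 neighbouring steps, from 0.10 to 0.65, were smaller than their SD over libraries. Over all 28 pairs of members, 22 had the same order in 3 of 3 libraries and 14 had ranges that did not overlap, 7 of these with Gas5. Gas5 exceeded Snhg1 by 2.05 ± 0.05 on the log2 scale, the smallest SD of the 28 pairs. Snhg6 exceeded Snhg1 by 0.70 ± 0.41 with ranges that did not overlap. Snhg15 exceeded Snhg3 by 0.75 ± 0.63 in 3 of 3 libraries, with ranges that overlapped.

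Length per gene matters for this order. The deposited length joins every annotated exon, and Gas5 has 20 and Snhg1 14 transcripts annotated as retained introns, so that exons cover 91.3% and 100% of their spans. For Gas5 the length was 3760 bases, against 502 for its transcript with the most exons. For Snhg1 it was 2969 against 605. Scaled to those shorter lengths (chosen after seeing the data), Gas5 stood at 1759 and Snhg1 at 277 on the same per-length scale, ahead of Snhg6 at 220 and Snhg5 at 190. Snhg1 then moved from the fifth place to the second, while Gas5 remained first and Snhg3 last at 56.7. These values keep all fragments counted over the joined exons, including any in retained introns, and leave the scaling total unchanged. They are therefore raised most where the joined length exceeds the transcript most. How many fragments came from the shorter transcripts was not tested.

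The next question was which members differed between the libraries by more than counting error. A chi-square test per gene on TMM-scaled counts was run over all 11595 genes with a mean count of at least 10, and a gene passed at an adjusted p under 0.05 where its highest library exceeded its lowest by at least 2 times. Of the 8 members 2 passed, Snhg5 and Snhg12, against 32.2% of all genes tested. The share was 24.7% among tested genes with no overlap and 68.9% among noncoding genes. The members' share is near or below these backgrounds. Snhg12 was highest in replicate 1, and 7.59% of tested genes both passed and were highest there. Snhg5 was highest in replicate 2, and 10.5% of tested genes both passed and were highest there. At any ratio, 4 members had an adjusted p under 0.05, against 55.5% of tested genes. The members' median ratio was 1.93, and that of all tested genes was 1.78. In scaled counts 6 members were highest in replicate 1 (40.4% of tested genes) and 5 were lowest in replicate 2 (52.5% of tested genes).

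Snhg5 had 46.6, 123 and 43.1 CPM (TMM-scaled counts relative to library size) in replicates 1, 2 and 3, a ratio of 2.84 (chi-square, adjusted p = 1.35e-07). Replicates 1 and 3 were alike and replicate 2 stood apart, with an exact Poisson 95% interval from 85.4 to 171 CPM that did not reach theirs. Without replicate 2 the ratio was 1.00 (chi-square, adjusted p = 0.989). Snhg12 had 42.8, 3.50 and 25.3 CPM, a ratio of 4.07 with replicate 2 set to 3 counts (chi-square, adjusted p = 1.30e-05). Its ratio was 1.56 without replicate 2 (chi-square, adjusted p = 0.00225) and 2.41 without replicate 1 (chi-square, adjusted p = 0.0718), and neither passed. The counts of members that passed were 1 without replicate 1 (18% of genes tested), 0 without replicate 2 (14.9%) and 2 without replicate 3 (11.8%). Without replicate 2, the chi-square test gave 3 members an unadjusted p under 0.05. Among genes with no overlap alone, 2 of 6 members passed (17.3% of genes tested), and without replicate 2 the count was 0 (5.15%).

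Gas5 and Snhg1 had an adjusted p under 0.05 at ratios below 2. Gas5 had 481, 438 and 366 CPM, a ratio of 1.31 (chi-square, adjusted p = 1.20e-12), and Snhg1 had 92.2, 80.6 and 71.8 CPM, a ratio of 1.28 (chi-square, adjusted p = 0.0168). For Gas5 the chi-square adjusted p was 0.142 without replicate 1 and 0.457 without replicate 3. For Snhg1 it was 0.705, 0.0847 and 0.664 without replicates 1, 2 and 3, 0.0659 with DESeq2 size factors and 0.604 among genes with no overlap. For Snhg8 (ratio 2.27; adjusted p = 0.0854 by chi-square) and Snhg15 (ratio 2.74; adjusted p = 0.255 by chi-square) the lowest library was replicate 2, with 5 and 3 counts. For Snhg3 (adjusted p = 0.161) and Snhg6 (adjusted p = 0.379) the chi-square test also did not pass, with ratios of 1.59 and 1.56. Replicate 2 held 2 to 11 fragments of each of these 4 genes. With library totals in place of TMM, Snhg8 passed as well (ratio 2.24; chi-square, adjusted p = 0.00399), and Snhg3 had a chi-square adjusted p of 0.02998 at a ratio of 1.89.

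**Figure D3:**
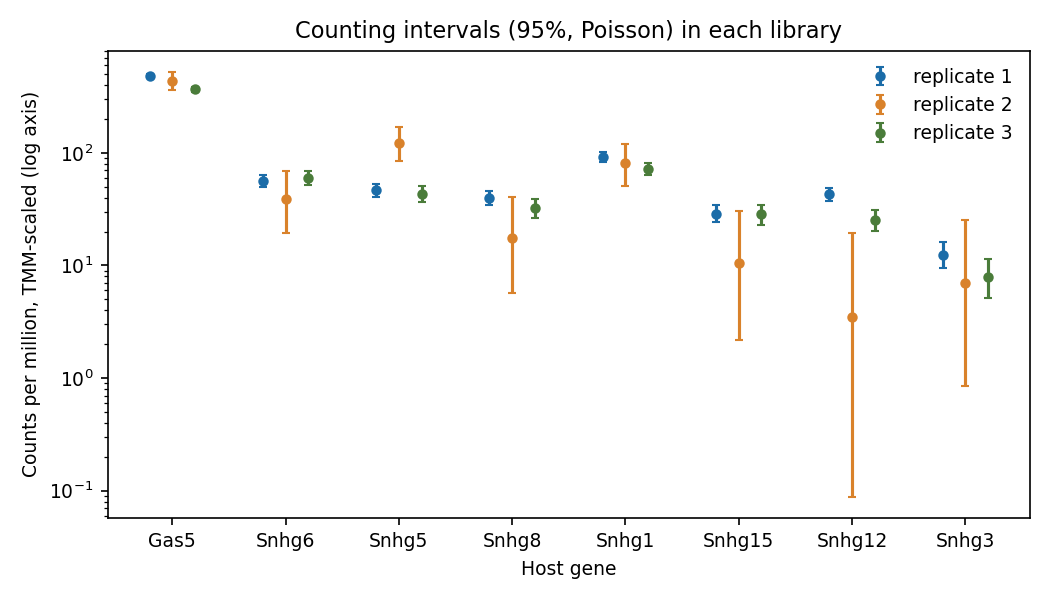
CPM, TMM-scaled (log axis), of each host gene in each library, with exact Poisson 95% intervals as bars. The interval of Snhg5 in replicate 2 (85.4 to 171) lies above the other libraries, and that of Snhg12 in replicate 2 (0.0887 to 19.5) lies below them.

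In TPM all 8 members were higher in replicate 1 than in replicate 3, against 76.1% of all genes tested and 93% of tested genes with no overlap. The members' median log2 ratio of replicate 1 to 3 was 0.80. It was 0.77 in tested genes with no overlap, 0.03 in overlapped genes and 0.65 in all tested genes. When TPM was scaled over genes with no overlap alone, Gas5 had 736, 696 and 635 TPM (689 ± 50.7, SD, n = 3) and Snhg1 had 179, 162 and 158 (166 ± 11.0, SD, n = 3). On that scale the summed level of the members was 1970, 1706 and 1836 TPM, and replicate 3 was no longer the lowest. Overlapped genes held 66.5% of the counts in replicate 3, and beyond this rescaling their part in the difference was not tested.

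Counts assigned to the snoRNAs themselves were nearly absent. Of the 30 snoRNA genes in the members, 27 had 0 counts in each library. The exceptions were Snora73b with 14, 0 and 5 counts and Snora73a with 5, 0 and 1 in Snhg3, and Snord87 with 2, 0 and 0 in Snhg6. The exons of the host overlap 26 of the 30 in the deposited annotation. The header's command holds no option to count a fragment for more than 1 gene, so a fragment over both would be counted for neither. The remaining snoRNA at 0, Snora16a, is annotated as 2 genes over the same bases. For these reasons no upper limit is drawn from the zeros. The part of this rule in the zeros was not tested.

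The remaining genes of the pathway were read from 4 lists. Of 12 other hosts listed as noncoding, 8 were matched by name. Of these, 3 had a mean of at least 10 TPM, against 10.9% of long noncoding genes. The annotation gives 1 of the 8, Snhg11, as protein-coding. Zfas1, whose exons face Znfx1, had 81.9 ± 25.4 TPM (SD, n = 3), between Snhg5 and Snhg8. Snhg14, which faces Ube3a over 1803 exon bases, had 32.4 ± 8.22, and Snhg17 had 16.2 ± 12.04, with 9.41 without replicate 2. At the low end, Dancr had 8, 0 and 2 counts, Snhg11 4, 0 and 2, and Snhg18 0 in each. Of the 4 tested 2 passed between libraries, against 32.2% of all genes tested and 68.9% of noncoding genes. Snhg17 was highest in replicate 2 (182, 27 and 93 counts; ratio 3.37; chi-square, adjusted p = 2.70e-07), as Snhg5 was, and without replicate 2 its ratio was 1.27 (chi-square, adjusted p = 0.133). Snhg14 was highest in replicate 3 (ratio 2.04, adjusted p = 5.07e-86 by chi-square). It passed without replicate 2 (ratio 2.21, adjusted p = 1.38e-108 by chi-square). It did not pass without replicate 1 (ratio 1.18) or without replicate 3 (ratio 1.73). Snhg4, Snhg7, Snhg10 and Snhg16 were not analysed here.

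The protein-coding hosts of the list had a far higher median level. They were chosen by name and include many ribosomal protein and translation genes, so this median does not describe coding hosts in general. Both medians rest on lengths that join every annotated exon. All 20 of the list had at least 10 TPM, with a median of 557 TPM against 63.6 for the 8 noncoding members and 27.3% of protein-coding genes at that minimum. The highest were the ribosomal protein gene Rpl4 at 3424 ± 1009 TPM (SD, n = 3), Rpl23a at 3044 ± 1110 with exons facing Tlcd1, and the elongation factor Eef2 at 1782 ± 554. The lowest were Rpl13a at 61.5 ± 15.8, the initiation factor Eif4a2 at 141 ± 39.9 and the nucleolar Wdr43 at 152 ± 43.0. By the chi-square test 0 of the 20 passed with a ratio of 2, against 32.2% of all genes tested. An unadjusted p under 0.05 was reached by 19, and with library totals 1 passed and with DESeq2 size factors 0. Their median ratio between libraries was 1.39.

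All 12 genes of snoRNA-protein particles had at least 10 TPM, against 27.3% of protein-coding genes. Their median was 64.4 TPM. The highest were Nop56, a core C/D protein (170 ± 59.0 TPM, SD, n = 3), the H/ACA protein Nhp2 (162 ± 65.8) and the assembly ATPase Ruvbl2 (158 ± 32.9). The exons of each face another gene. The lowest were the H/ACA assembly factor Naf1 (13.7 ± 4.83), the C/D protein Snu13 (23.2 ± 11.1) and the assembly factor Nufip1 (24.8 ± 8.68). Fibrillarin, Fbl, had 43.6 ± 8.64 and dyskerin, Dkc1, 92.9 ± 24.0, with exons facing Mpp1. Only Ruvbl1 of the 12 passed between libraries, against 32.2% of all genes tested. It was highest in replicate 2 (ratio 2.02, adjusted p = 5.01e-05 by chi-square). It did not pass without replicate 2 (ratio 1.18) or without replicate 3 (ratio 1.58). Nop56 is also among the coding hosts.

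All 10 genes of nonsense-mediated decay had at least 10 TPM (7 without replicate 1 and 8 without replicate 2), against 27.3% of protein-coding genes. Their median was 17.2 TPM. The helicase Upf1 led at 51.4 ± 14.4 TPM (SD, n = 3), its exons facing Cers1, followed by Upf3b at 31.8 ± 8.86. The lowest were the kinase Smg1 at 10.3 ± 1.23, the nuclease Smg6 at 10.9 ± 2.28 and Smg8 at 10.9 ± 5.39. Only Smg9 of the 10 passed between libraries, against 32.2% of all genes tested. It had 156, 3 and 81 counts (ratio 3.14, adjusted p = 0.0287 by chi-square) and was lowest in the shallow replicate 2. With DESeq2 size factors 0 of the 10 passed (5 had an unadjusted p under 0.05 by chi-square with TMM sizes), and with any 1 library left out Smg9 did not pass.

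**Figure D4:**
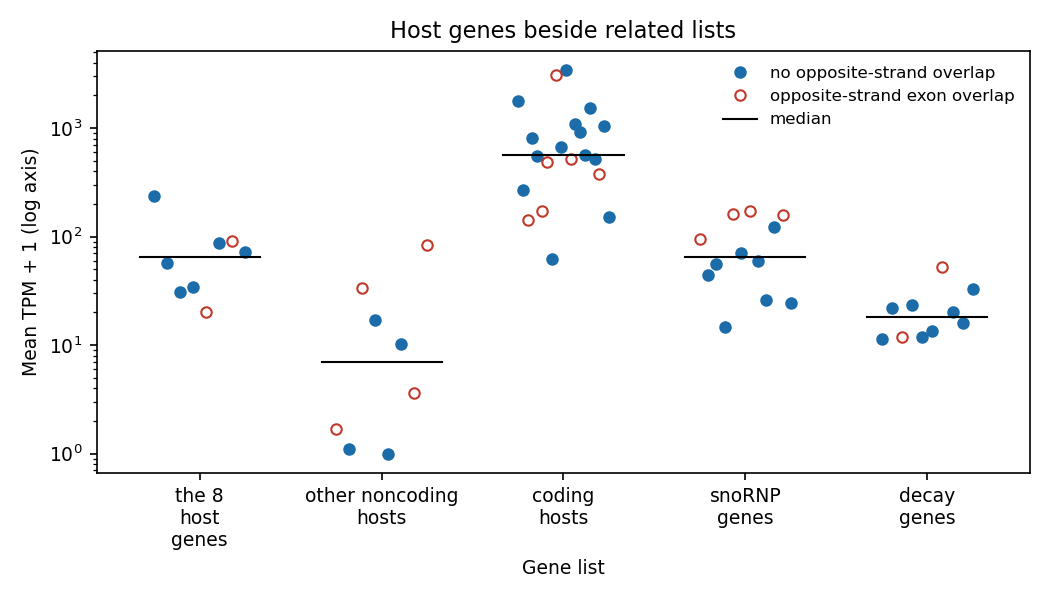
Mean TPM + 1 (log axis) of each gene of 5 lists over 3 libraries, with a bar at the list's median and open points for genes whose exons face a gene on the other strand. The median of the listed coding hosts (557 TPM) lies above those of the 8 noncoding hosts (63.6) and the snoRNP genes (64.4). The median of the decay genes (17.2) lies below.

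Across the 3 libraries, the genes with levels most like those of Gas5 were taken from 2588 others with a mean count of at least 100 and no overlap, by the largest absolute difference in log2 TPM in any library. The protein disulfide isomerase P4hb was nearest at 0.10 (308, 268 and 156 TPM), then the RNA-binding Hnrnpc at 0.15 (319, 243 and 160 TPM) and the nucleosome-binding Hmgn5 at 0.19 (253, 228 and 166 TPM). With 3 libraries this describes closeness of level and no more.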

How the data were processed

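RNA of 3 Th1 libraries was analysed as 1 group. The deposited values are raw counts (not normalized) of fragments per gene, which the file headers credit to featureCounts 1.4.6-p4, with both ends mapped, exons counted by gene on GENCODE mouse release 13 (mm10) and strand setting 1. The version of the aligner is not given in the sources used here.

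Names came from GENCODE release 21 (GRCm38, the same assembly), which matched 50376 of 50600 genes. TPM was computed from the counts and the deposited exon length. A gene was marked as overlapped when any exon base lay in an exon on the other strand. The chi-square test used TMM library sizes (edgeR 4.0.16) and Benjamini-Hochberg adjustment over all genes tested, with any library below 3 counts set to 3 in the ratio. It was tested on simulated data that held counting error only. That simulation cannot show how the test behaves where libraries differ by more than counting error. DESeq2 1.42.0 gave alternative size factors. Intervals are exact Poisson at 95% and, like the floor, cover counting error only, since PCR copies are not independent molecules. The text names the 8 members, genes sharing their exons, their snoRNAs, the highest and lowest 3 of each list and those past the test, and the 3 genes nearest to Gas5. A few genes of the lists are not reported here by name. Fbl and Dkc1, named as the 2 catalytic proteins, fall outside this rule and were chosen after their values were seen. The members and lists were chosen with earlier results of these data known. Alternatives changed scaling, filters, gene length and libraries.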

Additional observations from a re-analysis of the deposited data

How the results depend on the processing

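The count of 2 members that passed between libraries was 2 with DESeq2 size factors (3694 of 11595 genes tested passed) and with no filter (4076 of 19720). It was 2 of 6 on genes with no overlap (1201 of 6933) and 3 with library totals (4106 of 11595). With a mean count of at least 100 the count was 1, of 5 members tested (1750 of 5137). Leaving out a replicate gave counts from 0 to 2 (11.8% to 18% of genes tested). The 0 was without replicate 2 (14.9%), where the chi-square test gave 3 members an unadjusted p under 0.05. On genes with no overlap and without replicate 2, an alternative added after the data were seen, the count was 0 of 6 (5.15%). The summed level of 621 TPM was 1837 when scaled over genes with no overlap, and from 545 to 702 with a replicate left out. At 1 TPM, 5 of the other noncoding hosts were detected in place of 3. All 8 members kept a mean of at least 10 TPM in every alternative run for that count. Of the alternatives for single members, 40 moved the mean by less than its SD and 16 by more. Those 16 were the rescaling over genes with no overlap and the length of the transcript with the most exons. No paired analysis was possible because there was 1 group. Replicate 2 limits precision, since 5 members had 11 fragments or fewer there.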
